A study of Homo sapiens with 9 samples.

Results

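The 28 genes described here each encode a protein of the small (40S) subunit of the cytosolic ribosome. They were taken by symbol from a list of 40S proteins. The selection rule itself uses no measured value, but the list was drawn up with earlier results of these data known. All 28 were found among the 17637 genes of the deposited count table. All 28 passed the filter on low counts, which 15309 genes passed, and each held between 4812 and 113375 read counts per library. The libraries were made from KOPTK1, a cultured line of human T-ALL, acute lymphoblastic leukaemia of T-cell precursors, whose genotype is labelled WT in every group. The 3 groups, with 3 libraries each, were cells given a control short hairpin RNA (shControl), cells given a hairpin against DHX15 (shDHX15), and cells given that hairpin together with the coding region of MYC (shDHX15_MYC). The labels' protocol names lentivirus as the carrier, and polyadenylated RNA was sequenced. The table's column names give GFP as the control hairpin's target and the same hairpin number for both other groups, so a second hairpin was not analysed here, and the model is 1 cell line. The labels do not say whether the libraries of a group came from separate cultures, so p-values measure the spread between these libraries, which may be technical. In bulk RNA, fewer cells that express a gene and less of its RNA per cell cannot be told apart.

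The small subunit binds the mRNA, finds the start codon and reads the code, while the large (60S) subunit joins the amino acids. Its proteins are spread over a head, a body and a platform, and nearly all are made in equal numbers, 1 per ribosome. The mRNAs of ribosomal proteins are among the most abundant in dividing cells, and most begin with a C followed by a run of pyrimidines, the terminal oligopyrimidine (TOP) tract, through which mTOR signalling and LARP1 control their translation and stability. MYC is a transcription factor known to raise ribosome production, and DHX15 is an RNA helicase known for releasing spent spliceosomes and for a part in ribosome assembly.

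Of the genes whose levels bear on the labels, DHX15 stood at 280.3 ± 3.43 CPM (read counts scaled to a common library size; SD, n = 3) in shControl, 167 ± 13.8 in shDHX15 and 195 ± 2.55 in shDHX15_MYC. MYC stood at 109 ± 0.603, 86.9 ± 3.78 and 7098 ± 153 CPM in the same order. Library totals ran from 42134302 to 59688062 counts, and the 3 shDHX15_MYC libraries were the shallowest, at 42134302 to 43371973. CPM values here are scaled by TMM factors, which were 0.925 to 0.928 in shControl, 0.969 to 0.971 in shDHX15 and 1.108 to 1.117 in shDHX15_MYC. The marker sums below and their 1 CPM mark are the exception, being scaled by total counts alone. Mitochondrially encoded genes took 3.67 to 3.99% of counts in the first 2 groups and 6.59 to 6.66% in shDHX15_MYC. Of 18 T-lineage markers, 18 reached 1 CPM in every library of shControl and of shDHX15 and 16 did in shDHX15_MYC, and their summed level was 4866 to 4964 CPM in shControl, 4118 to 4338 in shDHX15 and 2709 to 2746 in shDHX15_MYC. Summed markers of other cell types were higher in shDHX15_MYC than in the other libraries: 117 to 121 CPM against 45.1 to 49.1 for 5 B-cell genes (CD22 at 0 in shDHX15), 8.07 to 9.85 against 0.603 to 1.22 for 6 myeloid genes (CSF1R and CD33 at 0 in shDHX15), 0.83 to 1.04 against 0.197 to 0.436 for 4 erythroid genes (HBB at 0 in shDHX15_MYC), and 52.9 to 54.0 against 15.8 to 22.1 for 9 genes of adherent or packaging cells (COL1A2 at 0 in shControl). The B-cell sum was mostly CD79A, at a TMM-scaled 37.4 CPM on average in shDHX15 and 99.8 in shDHX15_MYC. By contrast, CD79B fell from 9.52 to 5.76 CPM on that scale (log2 fold change -0.73, edgeR adjusted p = 1.26e-06). Against shControl, 6 of the 7 adherent or packaging genes tested were called higher in shDHX15_MYC, where 42.0% of all genes were called higher and 42.5% lower. CDH2 was lower (log2 fold change -1.53, edgeR adjusted p = 0.0025). The erythroid gene ALAS2 was not called against shDHX15 (log2 fold change -0.06, edgeR adjusted p = 0.917). The part of these shifts in the results below was not tested. Replicate 1 of shDHX15 stood apart from its group: over all genes, chi-square divided by its degrees of freedom was 18 and 17.1 between it and replicates 2 and 3, 4.45 between those, and 2.73 to 3.23 for pairs within the other groups.

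The sequences around the annotated transcription start show runs of pyrimidines that most of these genes share. In the RefSeq promoter windows (GRCh38.p14), 25 of the 28 genes had an entry (RPS2, RPS15A and RPS20 had none), with 28 start sites. A C followed by at least 4 bases that are C or T, on the gene's own strand and between 10 bases before and 20 after the start, was found in 23 of the 25 (92.0%), where 43.4% of 27305 genes had one. With at least 6 such bases after the C, the counts were 22 of 25 (88.0%) and 17.9%. The windows of RPS29 and RPS4X held no such tract. The E-box CACGTG, the best-known letters bound by MYC, was found in the 300-base window of 2 members (RPS19 and RPS28; 8.0%) and in 8.8% of all genes; the motif reads the same on both strands. The first 4 sequences below belong to members with large falls after MYC was added and the next 4 to members with small changes. Each gives the 30 bases around the start, 5′ to 3′ on the gene's strand, with the longest tract in capitals.
RPS25, chr11:119018324-119018353, minus strand: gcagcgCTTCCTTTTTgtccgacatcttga
RPS27, chr1:153990752-153990781, plus strand: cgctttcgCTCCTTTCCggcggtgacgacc
RPS23, chr5:82278335-82278364, minus strand: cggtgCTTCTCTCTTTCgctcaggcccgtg
RPS28, chr19:8321486-8321515, plus strand: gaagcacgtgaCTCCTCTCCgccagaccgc
RPS3, chr11:75399508-75399537, plus strand: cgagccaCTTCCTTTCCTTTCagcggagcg
RPS10, chr6:34426050-34426079, minus strand: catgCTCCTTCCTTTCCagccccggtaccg
RPS12, chr6:132814559-132814588, plus strand: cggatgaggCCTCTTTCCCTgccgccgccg
RPS19, chr19:41860245-41860274, plus strand: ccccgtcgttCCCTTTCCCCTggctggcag
The tract was 9 to 12 bases long in the first 4 and 11 to 14 in the next 4, so the lengths overlapped. RPS19 has 2 annotated starts, and the one with the longer tract is shown. The other, at chr19:41860394-41860423, has a tract of 6 bases and holds the E-box within its 30 bases. RPS4X has no tract in its window, and neither does RPS29, which fell more than 2-fold with added MYC. With TMM the change of RPS4X was the smallest, but under total-count scaling it was not (log2 fold change 0.16, against -0.01 for RPS27A). For RPS4X the window at chrX:72277229-72277258, minus strand, reads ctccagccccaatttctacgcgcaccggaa. A match to these letters is a description of the sequence alone.

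In control cells the 28 mRNAs together took 2.79 ± 0.0206% of all counts (SD, n = 3). Measured as CPM per kilobase of coding sequence, a rough way to set levels of different genes side by side, they ranged 4.2-fold. Reads also come from untranslated regions, so this scale favours genes with a very short coding sequence such as RPS27, at 252 bases. RPS27, a zinc-binding protein of the platform side, was the highest at 4220.0 CPM per kilobase, followed by RPS19 (3394), RPS20 (3297) and RPS18 (3145), 3 proteins of the head. RPS13 was the lowest at 1005, next to FAU at 1122 and RPS21 at 1206. Replicates lay close together in this group: the coefficient of variation of a member's CPM over the 3 control libraries was 0.63 to 4.27%, with a median of 1.6%.

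The first comparison asked what the hairpin against DHX15 did to these mRNAs. Nearly the whole small-subunit set was lower in shDHX15 than in shControl. edgeR's quasi-likelihood test called 27 of 28 members lower at an adjusted p under 0.05 and 0 higher, where it called 23.0% of all 15309 genes lower and 22.0% higher. No member was higher at an unadjusted p under 0.05 either, and DESeq2 called the same counts of 27 and 0. The median log2 fold change was -0.61, with a range from -0.76 to -0.10, beside a median of -0.0047 over all genes tested. The falls were modest and alike in size, and 0 members were at least 2-fold lower, where 2.16% of all genes were. For 27 members the 3 shDHX15 libraries lay below the 3 shControl libraries, as they did for 26.6% of all genes. The share of counts held by the 28 genes was 2.793, 2.77 and 2.811% in the control libraries and 2.156, 1.904 and 1.965% in shDHX15.

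The 12 members of the head all fell, with a median log2 fold change of -0.63, where 23.0% of all genes were called lower. RPS19, the head protein most often mutated in Diamond-Blackfan anaemia, stood at 1473, 1461 and 1495 CPM in shControl and at 956, 811 and 847 in shDHX15 (log2 fold change -0.76, SE 0.0430, adjusted p = 7.16e-10). All 3 knockdown libraries were far below the controls, and this 1.69-fold fall was the largest of the 28. RPS3, which lines the channel where the mRNA enters, went from 1727, 1748 and 1778 to 1183, 993 and 1022 CPM (log2 fold change -0.72, SE 0.0464, adjusted p = 3.39e-09). RPS29, a small zinc-binding protein, went from 411, 385 and 399 to 288, 214 and 227 CPM (log2 fold change -0.72, SE 0.0721, adjusted p = 5.48e-07). In both genes replicate 1 of shDHX15 was the highest of its group and still below every control. RPS10 and RPS12 fell by 0.66 and 0.67 on the log2 scale, from 1010.3, 995 and 1022 to 709, 596 and 613 CPM and from 724, 703 and 734 to 514, 406 and 437 CPM. RPS10 is a target of the ubiquitin ligase ZNF598 at collided ribosomes. RPS27A, made as a fusion with ubiquitin, went from 691, 682 and 684 to 488, 409.9 and 429.9 CPM (log2 fold change -0.63). RPS25, known for its role in translation from some viral internal entry sites, went from 939, 901 and 940.2 to 647, 566 and 578 CPM (log2 fold change -0.64). RPS15, whose tail reaches the decoding site, went from 802, 813 and 845 to 609, 550.4 and 539 CPM (log2 fold change -0.54). The groups overlapped in none of these 8 genes, and 26.6% of all genes were lower without overlap. RPS20 and RPS18 fell by 0.62 and 0.50, and RPS16 and RPS28 by 0.46 each, on the log2 scale.

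Of the 16 members of the body or platform, 15 were called lower, as were 23.0% of all genes, and the median log2 fold change of the 16 was -0.56. RPS15A had the deepest fall among them, from 1059, 1046 and 1068 to 784, 574 and 591 CPM (log2 fold change -0.70, SE 0.0765, adjusted p = 1.27e-06). RPS27 fell by 0.66 on the log2 scale, from 1098, 1037 and 1056 to 727, 640.4 and 651 CPM. RPS14, whose loss of 1 copy is known from a form of myelodysplastic syndrome, went from 899, 938 and 944 to 671, 542 and 579.6 CPM (log2 fold change -0.63). These 3 genes were again lower in every knockdown library, with replicate 1 the highest of the 3. RPS23, at the decoding centre, went from 1186, 1152 and 1205 to 829, 719 and 738 CPM (log2 fold change -0.63). RPSA, which sits at the back of the platform, went from 2457, 2434 and 2418 to 1812, 1605 and 1632 CPM (log2 fold change -0.53). RPS4X went from 1133, 1115 and 1140.3 to 859, 745 and 773 CPM (log2 fold change -0.51). In each of these 3 genes replicate 1 was the highest and replicate 2 the lowest of the knockdown libraries. FAU, made as a fusion with a ubiquitin-like protein, went from 436, 447 and 459.6 to 349, 306 and 316 CPM (log2 fold change -0.47). RPS24 and RPS7, both also mutated in Diamond-Blackfan anaemia, fell by 0.46 and 0.44, from 821, 802 and 826 to 638, 567 and 574 CPM and from 813, 778 and 793 to 626, 565 and 572 CPM. RPS6, the protein phosphorylated by S6 kinases, had the smallest fall that was called, from 1956, 1949 and 1973 to 1557, 1489 and 1480.0 CPM (log2 fold change -0.38, SE 0.0264, adjusted p = 9.14e-09). All 7 of these genes had groups that did not overlap, and 26.6% of all genes were lower without overlap. RPS13 and RPS9 fell by 0.61 each, RPS21 by 0.62, RPS26 by 0.57 and RPS3A by 0.54 on the log2 scale.

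RPS2, a protein at the mRNA entry site, was the exception among the 28. Its level was 1823, 1879 and 1872 CPM in shControl and 1361, 1852 and 1988 CPM in shDHX15. Replicate 1 was below the controls, while replicates 2 and 3 lay about the control level, and the groups overlapped. The log2 fold change was -0.10 (SE 0.0847, adjusted p = 0.363, 95% interval -0.279 to 0.0791). Without replicate 1 of shDHX15 the value was 0.05 (adjusted p = 0.0694), and without replicate 3 it was -0.21 and was called (adjusted p = 0.0286), which made all 28 members lower.

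**Figure D1:**
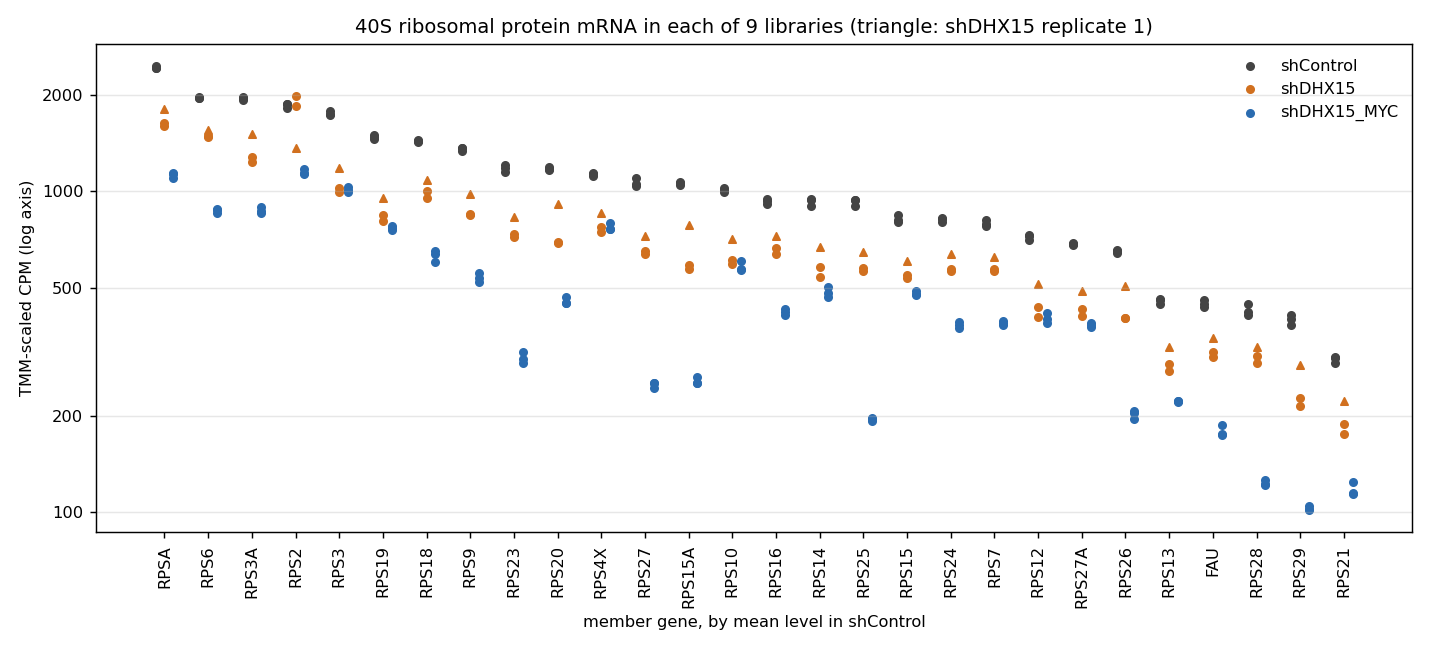
TMM-scaled CPM of each of the 28 genes (x axis, ordered by mean level in shControl) in each of the 9 libraries (y axis, log scale); grey points are shControl, orange shDHX15 with its replicate 1 as a triangle, and blue shDHX15_MYC. RPS2 is the gene whose orange points reach the grey ones, and the blue points of RPS25, RPS27, RPS15A and RPS23 lie furthest below the orange.

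Replicate 1 of shDHX15 stood apart in this gene set too. The log2 difference between replicate 1 and the mean of replicates 2 and 3 had a median of 0.196 and an SD of 0.160 over the 28 members, and 15 of 28 differed by more than 0.2. Over 546 other abundant genes (mean log2 CPM of 8 or more, ribosomal protein genes left out) the median was -0.0193, the SD 0.119, and 51 differed by more than 0.2. The members ran from -0.50 for RPS2 to 0.43 for RPS15A, so these 2 genes moved in opposite directions between libraries of the same group. The ratio of RPS2 to RPS15A counts was 1.72 to 1.80 in the control libraries and 1.74, 3.23 and 3.36 in shDHX15 replicates 1 to 3. Between replicates 2 and 3 the SD over members was 0.0354. Leaving out replicate 1 kept 27 members lower and moved the median log2 fold change to -0.69.

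The second comparison asked what adding the MYC coding region did to cells that carried the same hairpin. The small-subunit mRNAs were lower again, with a wide range between members. Against shDHX15, edgeR called 26 of 28 members lower in shDHX15_MYC and 0 higher, where it called 42.6% of all genes lower and 42.1% higher. No member was higher at an unadjusted p under 0.05, and DESeq2 called 24 lower and 0 higher. The median log2 fold change was -0.65 and the range -1.61 to -0.03, beside a median of 0.0058 over all genes tested. A fall of at least 2-fold was called for 7 members, RPS25, RPS27, RPS15A, RPS23, RPS28, RPS29 and RPS26, and for 14.7% of all genes. For 24 members the libraries with MYC lay below all those without it and for 0 above, as they did for 42.6 and 42.4% of all genes. These counts depend on the scaling: with total counts alone, or with TMM factors from genes whose mean log2 CPM was 3 or more, 20 members were called lower and 2, RPS3 and RPS4X, higher. Of the 15309 genes tested, 5348 were then called lower and 7679 higher with total counts, and 5416 and 7630 with those TMM factors.

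The largest falls were in small proteins of both regions. RPS25 stood at 197, 196 and 193 CPM in shDHX15_MYC, against 647, 566 and 578 in shDHX15 (log2 fold change -1.61, SE 0.0416, adjusted p = 3.90e-16). All 3 libraries with MYC were far below the lowest of the others, a mean fall of 3.06-fold. The gene lies on chromosome 11 from 119015712 to 119018691 on the minus strand (GENCODE v29, GRCh38). RPS27 stood at 244, 253 and 253 CPM (log2 fold change -1.43, SE 0.0414, adjusted p = 1.75e-15). RPS15A stood at 253, 253 and 263 CPM (log2 fold change -1.34, SE 0.0782, adjusted p = 2.68e-11). RPS23 stood at 291, 300.3 and 315 CPM (log2 fold change -1.33, SE 0.0449, adjusted p = 1.29e-14). RPS27 lies on chromosome 1 from 153990755 to 153992155 (plus strand), RPS15A on chromosome 16 from 18781295 to 18790383 (minus strand) and RPS23 on chromosome 5 from 82273358 to 82278577 (minus strand). These 4 genes fell 2.52 to 3.06-fold, with the 3 libraries with MYC close to each other. RPS29 reached 102, 102 and 104 CPM (log2 fold change -1.24), and RPS28 and RPS26 fell by 1.32 and 1.12 on the log2 scale. RPS26 contacts the mRNA just upstream of the start codon.

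A second set of members fell by a middle amount. FAU reached 176, 174 and 186 CPM (log2 fold change -0.86, adjusted p = 4.26e-12) and RPS6 874, 858 and 883 CPM (log2 fold change -0.79, adjusted p = 1.28e-14). RPSA reached 1105, 1132 and 1139 CPM (log2 fold change -0.58, adjusted p = 6.55e-11). Each of these 9 values lay below all 3 shDHX15 libraries of its gene. RPS2, which was not called with the hairpin alone, reached 1132, 1143 and 1177 CPM in shDHX15_MYC, below all 3 shDHX15 libraries (log2 fold change -0.59, adjusted p = 4.86e-06). RPS24 reached 377, 384 and 392 CPM and RPS7 384, 395 and 389.8 CPM (log2 fold changes -0.63 and -0.59). RPS20, RPS21, RPS9, RPS18, RPS16 and RPS3A fell by 0.75, 0.73, 0.73, 0.68, 0.68 and 0.61 on the log2 scale. RPS13 fell by 0.43. The groups overlapped in none of the genes of this middle set, and 42.6% of all genes were lower without overlap.

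The smallest changes were in RPS14, RPS15, RPS27A, RPS19, RPS12, RPS10, RPS3 and RPS4X, 6 of them proteins of the head. RPS14 reached 468, 483 and 502 CPM (log2 fold change -0.30), RPS15 477, 475 and 488 CPM (-0.24) and RPS27A 379, 383 and 388 CPM (-0.21). RPS19, the member with the deepest fall under the hairpin alone, stood at 761, 767 and 779.9 CPM (log2 fold change -0.18, SE 0.0429, adjusted p = 9.12e-04). In these 4 genes the libraries with MYC were below all 3 without it. RPS12 stood at 388, 401 and 419 CPM (log2 fold change -0.17, adjusted p = 0.0141) and RPS10 at 572, 568 and 606 CPM (-0.14, adjusted p = 0.0153). Both overlapped with the shDHX15 libraries. RPS3 stood at 993, 1012 and 1034 CPM (log2 fold change -0.07, SE 0.0463, adjusted p = 0.149, 95% interval -0.171 to 0.0247) and RPS4X at 764, 761 and 796 CPM (-0.03, SE 0.0402, adjusted p = 0.434, 95% interval -0.119 to 0.0509). These 2 were not called, and their groups overlapped. Under total-count scaling none of the 8 was called lower, and RPS3 (log2 fold change 0.13, adjusted p = 0.0187) and RPS4X (0.16, adjusted p = 0.00109) were called higher.

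**Figure D2:**
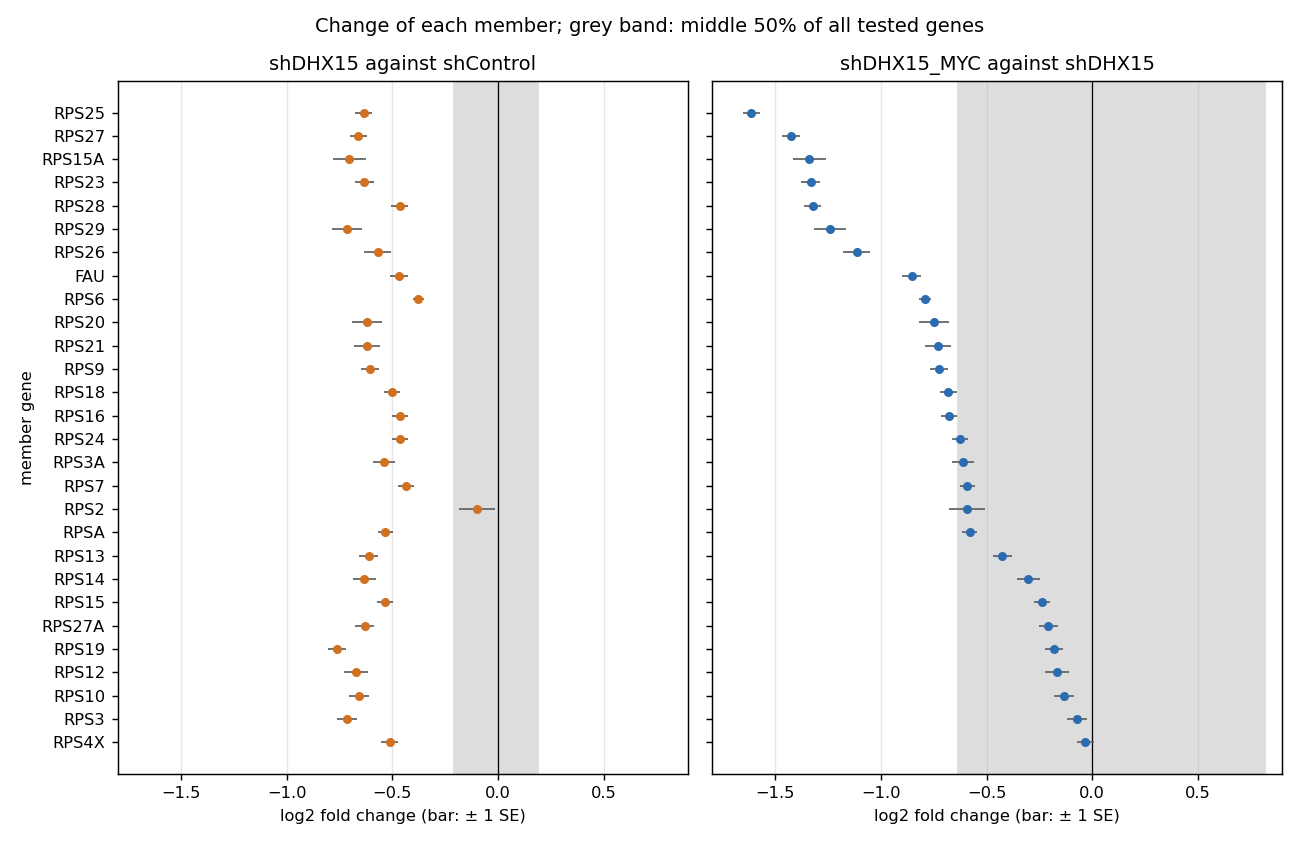
Log2 fold change of each of the 28 genes (y axis, ordered by the change with added MYC) in shDHX15 against shControl (left) and in shDHX15_MYC against shDHX15 (right), with bars of 1 SE and a grey band for the middle 50% of all tested genes. On the left 27 genes lie between -0.76 and -0.38 with RPS2 at -0.10, and on the right the genes run from -1.61 for RPS25 to -0.03 for RPS4X.

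By region, the median log2 fold change with added MYC was -0.46 over the 12 head proteins (11 lower, 3 of them at least 2-fold) and -0.68 over the 16 body and platform proteins (15 lower, 4 at least 2-fold). Of all genes, 42.6% were called lower and 14.7% at least 2-fold lower. The 2 regions overlapped widely, since the head holds both RPS25 and RPS3. Of the 28 genes, 7 have small nucleolar RNAs annotated inside the gene (RPSA, RPS2, RPS3, RPS3A, RPS12, RPS13 and RPS20), which guide chemical marks on ribosomal RNA. Their median was -0.58, with 0 at least 2-fold lower, and it was -0.73 over the 21 others, with 7 at least 2-fold lower. Under the hairpin alone both medians were -0.61. RPSA, RPS2, RPS3 and RPS3A are also among the 6 members of 600 to 899 coding bases, whose median with added MYC was -0.59. The part of length in this split was not tested.

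The third comparison set both changes together against the control hairpin and shares its libraries with the other comparisons. All 28 members were lower in shDHX15_MYC than in shControl by edgeR's test and 0 higher, where 42.5% of all genes were called lower and 42.0% higher. No member was higher at an unadjusted p under 0.05 or by DESeq2. The fall was at least 2-fold in 19 members, as it was in 14.5% of all genes, and for 28 members the libraries with MYC lay below all controls and for 0 above, as they did for 43.6 and 43.5% of all genes. The median log2 fold change was -1.15, beside 0.0173 over all genes. RPS25 had the deepest fall, 4.75-fold (log2 fold change -2.25, SE 0.0423, adjusted p = 7.30e-18), followed by RPS27 (-2.09), RPS15A (-2.04) and RPS23 (-1.97). The smallest falls were those of RPS4X (-0.55, SE 0.0403, adjusted p = 7.59e-10), RPS2 (-0.69), RPS15 (-0.77) and RPS3 (-0.79). RPS19 and RPS14 fell by 0.94 each, RPSA by 1.11, RPS27A by 0.84, RPS6 by 1.17 and FAU by 1.32 on the log2 scale. The share of counts held by the set was 1.5, 1.517 and 1.551% in shDHX15_MYC (1.52 ± 0.0260%, SD, n = 3), below every library of shDHX15 (2.01 ± 0.132%) and of shControl.

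The members did not fall in step once MYC was added, and this can be read without any scaling between libraries. Each library was set against the mean of the control libraries, leaving out the library itself where it was a control. The SD over the 28 members of this log2 deviation was 0.0252 to 0.0342 in the control libraries. It was 0.0752 in shDHX15 replicate 1, 0.180 in replicates 2 and 3, and 0.470 to 0.475 in the 3 shDHX15_MYC libraries. A wider spread with added MYC was not particular to the members. Against shControl, the quartiles of log2 fold change over all genes tested were -0.2075 and 0.1912 in shDHX15. They were -0.631 and 0.8121 in shDHX15_MYC. Those of the members were -0.6412 and -0.4931, then -1.449 and -0.9127. The members thus lay closer together than all genes, which include weakly expressed ones. For every 1 RPS4X count there were 0.808 to 0.829 RPS25 counts in shControl, 0.748 to 0.760 in shDHX15 and 0.243 to 0.257 in shDHX15_MYC. The ratio of RPS27 to RPS4X was 0.926 to 0.969, 0.842 to 0.860 and 0.319 to 0.333 in the same order. By contrast, the ratio of RPS3 to RPS4X was 1.53 to 1.57 in shControl, 1.32 to 1.38 in shDHX15 and 1.30 to 1.33 in shDHX15_MYC, where the last 2 ranges overlap. RPS4X was picked as the denominator after its values were seen. These ratios show unequal change and not that RPS4X was constant.

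**Figure D3:**
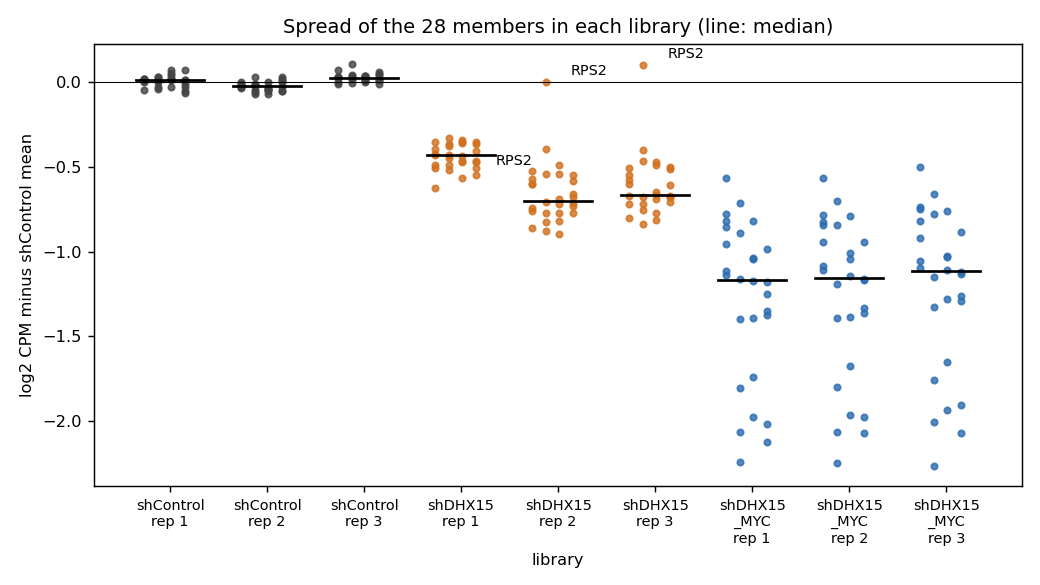
Log2 deviation of each of the 28 genes from its shControl mean (y axis) in each of the 9 libraries (x axis), with a black line at the median and RPS2 named in the shDHX15 libraries. For a shControl library the mean is that of the other shControl libraries. The SD over genes is 0.0252 to 0.0342 in shControl, 0.0752 to 0.180 in shDHX15 and 0.470 to 0.475 in shDHX15_MYC.

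The order of levels per kilobase of coding sequence changed accordingly. RPS27 was first of 28 in shControl (4220.0 CPM per kilobase) and in shDHX15 (2669), and 13th in shDHX15_MYC (994). RPS25 moved from rank 9 (2472) in shControl to rank 25 (520.0) in shDHX15_MYC. RPS19 became the highest with MYC (1769), followed by RPS3 (1390.0), RPS18 (1386) and RPS2 (1309). RPS3 had stood at rank 11 in control cells (2402) and RPS10 moved from rank 19 (2039) to rank 7 (1176).

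Members with a short coding sequence had lower median values than those with a long one. Over the 28 members the log2 fold change with added MYC correlated with coding length with Pearson's r = 0.471 and Spearman's rho = 0.604; under the hairpin alone r was 0.464 and rho 0.359. This is a description across genes that share the same libraries, and genes are not independent replicates. The 4 members under 300 bases (RPS21, RPS27, RPS28 and RPS29) had a median log2 fold change of -1.28 with added MYC, the 18 of 300 to 599 bases -0.65, and the 6 of 600 to 899 bases -0.59. Other genes whose mean log2 CPM was 6 or more had medians of -0.31 (53 genes), -0.23 (326 genes) and -0.27 (396 genes) in the same length classes. Over other genes of any level the medians were -0.19 (270 genes), -0.07 (1468 genes) and 0.02 (1964 genes), also lowest for the shortest genes. In shDHX15_MYC against shControl the members' medians were -1.87, -1.12 and -0.95, and those of other genes at 6 or more were -0.60, -0.43 and -0.33, in the same order. RPS25, at 375 coding bases, had the deepest fall, while RPS12, at 396, had one of the smallest. Under the hairpin alone the member medians were -0.64, -0.62 and -0.52, and those of other genes at 6 or more -0.21, -0.15 and -0.06. The difference of shDHX15 replicate 1 from its group also went with length over the members (r = -0.497, rho = -0.352). RPS2, at 879 bases, had the only negative difference (-0.50) and the smallest change under the hairpin alone (-0.10). Correlations without RPS2 were not computed, and the part of transcript length in these results was not tested.

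**Figure D4:**
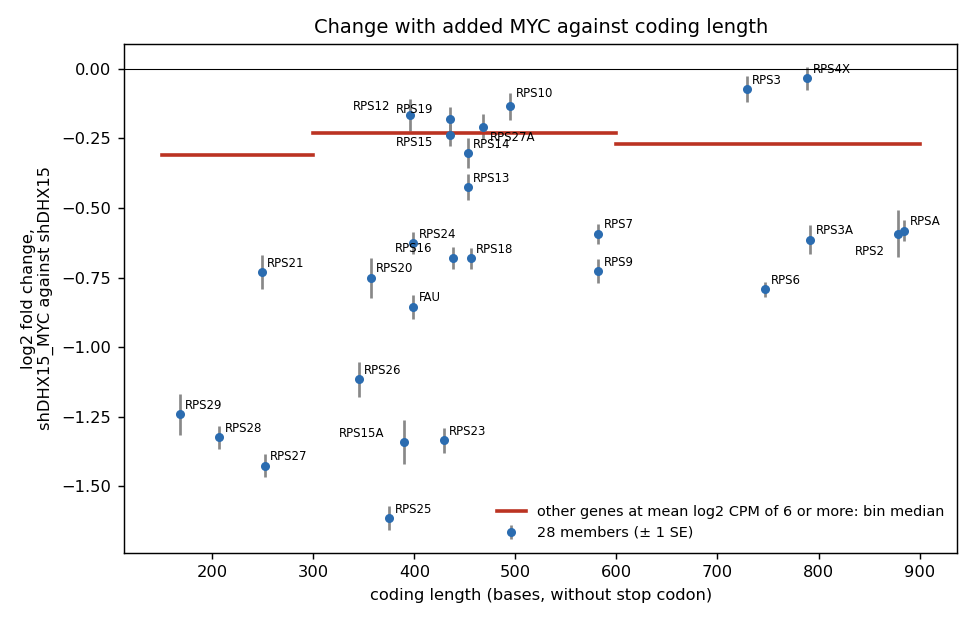
Log2 fold change of the 28 genes in shDHX15_MYC against shDHX15 (y axis, bars of 1 SE) against the coding length in bases without the stop codon (x axis); red lines are medians of other genes at a mean log2 CPM of 6 or more in the same length class. RPS29, RPS28 and RPS27, under 300 bases, lie at -1.24 or below with RPS25, RPS15A and RPS23, and the red lines stay between -0.31 and -0.23.

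Ribosomal protein genes have many processed pseudogenes, which can take or share reads. GENCODE v29 annotates between 1 (RPS9, RPS13 and RPS25) and 74 (RPSA) pseudogenes per member. The share of 100-base windows of a member's transcripts that were found word for word at another annotated locus was at least 0.2 for 6 members: RPS3A (0.482), RPS10 (0.348), RPS27 (0.326), RPSA (0.305), RPS26 (0.266) and RPS2 (0.248). How reads with several matching places were counted is not given in the sources used here, so these 6 values are uncertain in every comparison. Their median log2 fold change with added MYC was -0.60, against -0.68 for the 22 members with a lower share and -0.73 for the 10 members with a share of 0. Outside the ribosomal proteins, genes with a share of at least 0.8 (99 genes) had a median of -2.58 in this comparison, those from 0.2 to 0.8 (246 genes) -0.49, and those with a share of 0 (13164 genes) 0.04. In shDHX15 against shControl the 3 medians were 0.01, 0.05 and -0.0033. The lower level of shared-sequence genes and the higher mitochondrial share set the shDHX15_MYC libraries apart from the other 6. Whether these libraries were prepared or counted differently was not tested and cannot be told apart from the added MYC. This bears on the values of all 28 members in both comparisons that use these libraries. RPS10 lies inside the readthrough gene RPS10-NUDT3, whose counts were 1.016 to 1.026 times those of RPS10 in all 9 libraries. Reads in a stretch that overlapping genes share may thus have been counted for each gene, which was not tested. RPS13 and FAU overlap PIK3C2A and SYVN1 on their own strand, and RPS25, RPS23 and RPS4X are among the members that overlap genes on the opposite strand. Whether the counting used strand is not given in the sources used here.

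RPS27L, a near copy of RPS27 known as a target of p53, went from 62.9 ± 1.95 to 44.0 ± 5.44 and then 87.7 ± 2.60 CPM, a fall of 0.51 and then a rise of 0.99 on the log2 scale (adjusted p = 5.34e-06 and 8.79e-11). RPS27 counts were 16.4 to 17.2 times those of RPS27L in shControl, 14.4 to 15.8 times in shDHX15 and 2.80 to 2.96 times in shDHX15_MYC.

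The 60S proteins are given for comparison only, as counts and medians. With the hairpin alone 47 of 47 were called lower (median -0.47), and with added MYC 41 were lower and 2 higher, with 12 at least 2-fold lower (median -0.65, range -1.57 to 0.20; 36 lower and 6 higher under total-count scaling). They took 4.93, 3.76 and 2.67% of counts in the 3 groups. Of all genes, 23.0% were called lower with the hairpin alone. With MYC added, 42.6% were lower, 14.7% at least 2-fold lower, and 42.1% higher. These shares are with TMM, and under total-count scaling 5348 of 15309 genes were lower and 7679 higher with MYC added. The difference between the subunits was not tested.

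Genes that assemble or modify the small subunit were called in both directions. Of 23, edgeR called 11 lower and 4 higher with the hairpin alone (median log2 fold change -0.08; 6 lower and 7 higher under total-count scaling), and 4 lower and 19 higher with MYC added (median 0.60; 2 and 20 under total-count scaling). With TMM, all genes were called lower in 23.0% and higher in 22.0% with the hairpin alone, and in 42.6% and 42.1% with MYC added. Under total-count scaling, 2568 of 15309 genes were lower and 4576 higher with the hairpin alone, and 5348 and 7679 with MYC added. The difference from the members was not tested. RPS19BP1, a binding partner of RPS19, fell by 0.41 and then rose by 0.32 on the log2 scale. NOB1, the nuclease that makes the final cut in small-subunit ribosomal RNA, fell by 0.32 and rose by 0.36. LTV1, which helps to place RPS3 and RPS10 in the head, fell by 0.45 and rose by 1.99. RIOK1 and PNO1, late assembly factors, rose by 1.90 and 2.57 with MYC added (adjusted p = 1.17e-16 and 1.72e-16). RPS6KB2, a kinase of RPS6, fell by 0.31 and by a further 0.39.

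Of 12 known regulators of TOP mRNAs, 3 were lower and 5 higher with the hairpin alone (median 0.01), and 7 lower and 5 higher with MYC added (median -0.22; 6 and 6, with a median of -0.02, under total-count scaling). Of all genes, 23.0% were called lower and 22.0% higher with the hairpin alone, and 42.6% and 42.1% with MYC added. These shares are with TMM, and under total-count scaling 5348 of 15309 genes were lower and 7679 higher with MYC added. LARP1, which binds the cap and the tract, fell by 0.20 and then rose by 0.37 on the log2 scale. HNRNPD rose by 0.28 and then fell by 0.40. EIF4EBP2 and TIAL1 rose by 0.18 and 0.21 and then fell by 0.34 and 0.36. PABPC1, the poly(A)-binding protein, whose own mRNA is a known TOP mRNA, had a log2 fold change of -0.03 with the hairpin alone (adjusted p = 0.288; 0.03 under total-count scaling) and fell by 0.95 with MYC added. LARP4, which protects poly(A) tails of ribosomal protein mRNAs, rose by 0.20 and by a further 0.93.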

How the data were processed

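Poly(A) RNA of 9 KOPTK1 libraries was sequenced as 150 bp paired-end reads. The values are raw read counts per gene as the authors deposited them, whole and unscaled; HISAT2 2.2.1 and hg38 are named in the submitters' processing notes, beside FastQC 0.11.9 and DESeq2 1.32.0. The counter, its annotation and its treatment of multiply placed reads: not given in the sources used here. Columns were joined to samples by name, with GFP-hairpin columns taken as shControl.

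From the counts, edgeR 4.0.16 (R 4.3.3; filterByExpr, TMM, glmQLFit and glmQLFTest, 9 libraries, 1 mean per group) tested 15309 genes in 3 comparisons, with Benjamini-Hochberg adjustment over all of them and a threshold of 0.05. DESeq2 1.42.0 was an alternative. The simulation below changed 50 genes at each fold size, drawn over all levels and in both directions. Its other genes were unchanged, unlike with added MYC, so its recovery does not bear on the choice of scaling. On simulated counts, 64% of 1.25-fold and 92% of 2-fold changes were recovered for shDHX15 against shControl (15061 genes; 11 unchanged genes called), 54% and 84% for shDHX15_MYC against shDHX15 (15075 genes; 13 called), and 68% and 80% for shDHX15_MYC against shControl (15078 genes; 11 called).

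The members and lists were chosen with earlier results of these data known. All members are named; per-library values are given for the 4 lowest and 4 highest of each comparison plus RPS19, RPS14, RPS6, RPSA, RPS27A and FAU, and other lists by counts, medians and the genes with the smallest adjusted p. Coding length, shared windows (100 bases every 50) and overlaps came from GENCODE v29, where 95.1% of symbols matched. Replicate numbers did not pair the libraries (r from -0.0321 to 0.0345 over 15309 genes). Alternatives tried were 5 other scalings, no filter, DESeq2, 2-group fits, a replicate block, a threshold of 0.01 and leaving out each library. A list of further small-subunit proteins is not reported here.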

Additional observations from a re-analysis of the deposited data

How the results depend on the processing

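Against shDHX15, total-count scaling and TMM factors from genes at a mean log2 CPM of 3 or more gave 20 members lower in shDHX15_MYC in place of 26, and 2 higher in place of 0. The median log2 fold change was then -0.4537 and -0.4619. Against shControl it was -0.8834 and -0.9434, and -1.11 with DESeq2 and with its size factors. Under total counts the median of all genes shifted to 0.06, 0.20 and 0.28 in the 3 comparisons, and 64.1, 58.9 and 62.4% of called genes were higher, against 48.8, 49.7 and 49.7% with TMM; with factors from abundant genes the last share was 59.7%.

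Signs turned, in that order of scalings, for RPS10 (0.0633 and 0.0553), RPS12 (0.0318 and 0.0238), RPS19 (0.0188 and 0.0107), RPS3 (0.125 and 0.117) and RPS4X (0.164 and 0.156) with added MYC. RPS4X was also above 0 with DESeq2 size factors (0.00475) and DESeq2 (0.00355), and ran from -0.0662 to 0.0194 as 1 library at a time was left out, above 0 without shDHX15 replicate 1. RPS2 in shDHX15 against shControl ran from -0.209 to 0.0477 in the same way, above 0 without that replicate. The cause was not tested.

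Leaving out 1 library at a time gave 27 to 28 members lower with the hairpin alone (median -0.69 to -0.55), 24 to 27 with added MYC (-0.68 to -0.63) and 28 to 28 against shControl (-1.17 to -1.14), with 0 higher in each. The replicate block gave 27, 26 and 28 lower and changed no other call. For the members whose per-library values are given, and not the others, log2 fold changes under these alternatives were compared with the main fit. Of these, 879 kept their sign and side of the threshold, 16 were no longer called, 3 became called and 14 turned. Relative to RPS4X, an alternative chosen after seeing the data, the medians were -0.10, -0.65 and -0.61.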
